A study of Rattus norvegicus with 6 samples.

Results

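Enzymes that add, remove or read chemical marks on histones and DNA were followed here, leaving out the subunits of polycomb repressive complex 2 (PRC2). The set was a list of 51 rat genes, chosen by name for their function and grouped by enzyme class, of which 32 had at least 1 array probe with a transcript accession of the gene, and 28 gave enough signal to be tested. The cells were primary ventricular myocytes from the hearts of male Sprague-Dawley rats aged 1 to 2 days, all cultured for 36 h and then given 50 nmol/L of siRNA for 3 h in serum-free medium. Serum starvation went on for a further 21 h, so RNA was taken 24 h after transfection. The si-uc.323 group (3 cultures) received an siRNA against uc.323, a transcribed ultraconserved region whose place in myocyte enlargement is the question of the series, and the si-scramble group (3 cultures) received a scrambled siRNA. Each culture was described as an independent experiment and had 1 single-colour array. All cultures were preplated to remove fibroblasts and grown with 5-bromodeoxyuridine. Only 1 siRNA against uc.323 was used, and the level of uc.323 itself was not analysed here. The sequence of that siRNA is shown because it is the agent under test (5′ to 3′, as the labels give it, without the 2-base dTdT overhang).
si-uc.323: gguaaguaauuucagcaau

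As background, histone acetyltransferases open chromatin by acetylating histone tails and histone deacetylases reverse this. In heart muscle the class IIa deacetylases hold back the MEF2 transcription factors until calcium-dependent kinases send them out of the nucleus, which links this family to hypertrophic growth. Lysine methyltransferases and demethylases set marks of active or silent genes, DNA methyltransferases silence by methylating cytosine, and polycomb repressive complex 1 (PRC1) reads the PRC2 mark and ubiquitinates a histone.

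Values below are log2 processed intensities minus the log2 of the same array's 75th percentile, so that 0 is the 75th percentile. A log2 fold change is the si-uc.323 mean minus the si-scramble mean. Levels of different probes cannot be ranked against each other on these arrays. Replicates 2 and 3 of si-uc.323 were hybridised on slide 2, where 78.2% and 86.5% of probes were well above background. Replicate 1 of si-uc.323 shared slide 1 with the 3 si-scramble arrays, and there the share was 71.8% to 73.9%. All 9 ventricular myocyte markers were well above background, with a summed relative intensity of 204 to 230 on si-uc.323 arrays and 219 to 229 on si-scramble arrays. All 8 fibroblast markers were detected too, at a summed 126 to 157 with si-uc.323 and 124 to 134 with si-scramble. Among them Postn, a matrix protein, passed and was higher (log2 fold change 0.69; limma, adjusted p = 0.0312), Col3a1 was higher without overlap (0.50; adjusted p = 0.0638), and the other 6 overlapped. The 5 measured endothelial markers summed to 5.52 to 8.56 with si-uc.323 and 11.0 to 12.4 with si-scramble, without overlap. That sum followed Kdr (-0.76; limma, adjusted p = 0.068), while Tek (0.46) was higher without overlap, Pecam1 and Cdh5 overlapped, and none of the 5 passed. Tie1 (0.73) was well above background on no si-scramble array and was tested only through its si-uc.323 arrays. Its value is not read as a change. The smooth muscle and mural, leukocyte, erythroid and neural sums overlapped between the groups, and of their genes 1 passed, the erythroid Hbb (-0.61; limma, adjusted p = 0.0478). The Postn and Hbb calls were lost when any si-scramble array was left out and with the slide as a block. At most 18 of 19920 features passed in those fits, which therefore gave no test of either gene. Both calls were also lost in fits that did call features. These were the replicate block (660 features called) and the fits without si-uc.323 replicate 1 (853) or 3 (433). Each gene passed in 7 of 16 alternatives. No marker was at background on all 6 arrays. In whole cultures, fewer cells of a type and less RNA per cell cannot be told apart, and the part of other cell types in the values below was not tested.

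None of the 28 measured chromatin enzymes passed an adjusted p of 0.05 (limma with Benjamini-Hochberg adjustment over 19920 features), 0 higher and 0 lower with si-uc.323. Across all features 5.63% passed, 3.18% higher and 2.45% lower. At an unadjusted p under 0.05 there were 6 members, 1 higher (Hdac8) and 5 lower (Dnmt3a, Hdac11, Kdm6b, Kdm5b and Ring1), where 28.0% of all features met that mark. The 3 arrays of one group lay wholly apart from those of the other in 7 members, 1 of them higher (Hdac8) and 6 lower (the 5 just named and Kat5), against 35.1% of all features, 18.6% higher and 16.5% lower. The members' median log2 fold change was -0.03, with 12 positive and 16 negative, and that of all features was 0.04. The typical size of a member's change, 0.20 on the log2 scale without regard to sign, was also close to that of all features, 0.23.

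On the brightest probe of each member and in the fit as reported, the intervals left room for moderate changes and mostly for no large one. The unadjusted 95% interval lay within a 2-fold change either way (between -1 and 1) for 26 of the 28 members, the exceptions being Hdac8 and Dot1l, and within -0.5 and 0.5 for 14. Hdac1 and Smarca4 were among the 14, though a dimmer probe of each gave 0.84 and 0.76. The intervals therefore do not bound the change of a gene, and they take no account of the split over 2 slides. To pass the threshold in this experiment a member would have needed a log2 fold change of 0.45 (Kat2a) to 3.39 (Dot1l), with a median of 0.64. These values follow from each member's SE in this fit and are not general detection limits. With normexp background correction, Dnmt3a passed at -0.57 and Hdac11 at -0.50, where this fit would have needed 0.67 and 0.55.

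**Figure D1:**
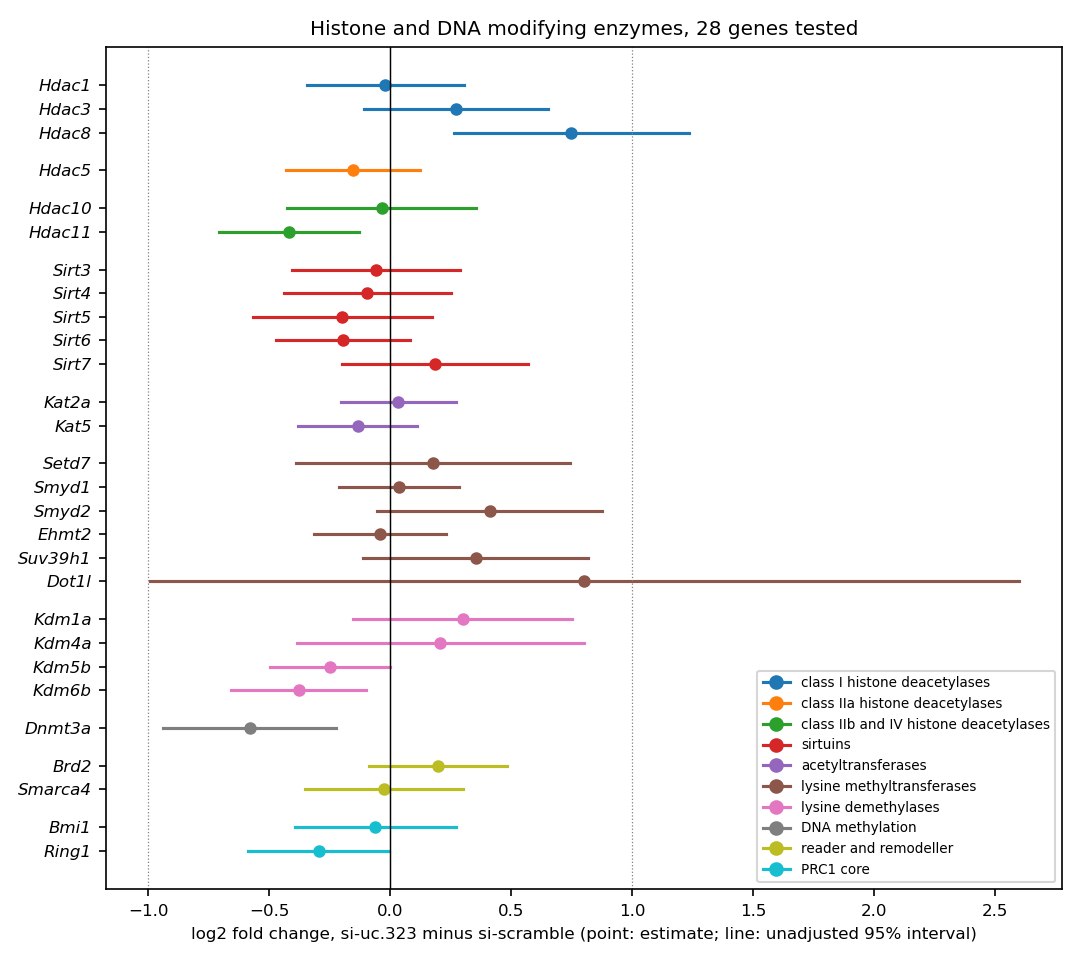
Log2 fold change of each measured member (x axis, si-uc.323 minus si-scramble) by gene (y axis), coloured by enzyme class, with the unadjusted 95% interval as a line and dotted lines at -1 and 1. Dot1l at 0.80, Hdac8 at 0.75 and Dnmt3a at -0.58 lie farthest from 0, and the interval of Dot1l, from -0.99 to 2.60, is the widest.

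The members nearest to the threshold came from different classes. Dnmt3a, the methyltransferase that places new methyl groups on DNA, read -1.57, -2.0 and -1.52 on si-uc.323 replicates 1, 2 and 3 and -1.16, -1.10 and -1.09 on si-scramble replicates 1, 2 and 3. Every si-uc.323 array was below every si-scramble array, and si-uc.323 replicate 2 was the lowest of all. The log2 fold change of Dnmt3a was -0.58 ± 0.15 (SE, n = 3 and 3 arrays; limma, adjusted p = 0.0673), which is 0.668 times the si-scramble level. Its si-scramble arrays were close together (SD 0.039), and its si-uc.323 arrays were not (SD 0.268).

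Whether Dnmt3a passed depended on the processing, while its direction did not. It was lower under all 16 alternatives, with a log2 fold change of -0.69 to -0.43 and an adjusted p of 0.0363 to 0.364 (limma). Because its groups did not overlap, leaving out an array or using slide 1 alone could not turn the sign. The background filters, the probe mean and the replicate block left the estimate unchanged. It passed when each array was centred on its median (-0.69, adjusted p = 0.0363), with quantile normalization (-0.65, adjusted p = 0.039), on the authors' series values (-0.65, adjusted p = 0.0393) and with normexp background correction (-0.57, adjusted p = 0.04997). It also passed when si-uc.323 replicate 2 was left out, with a smaller difference of -0.43 (adjusted p = 0.0435). On slide 1 alone, where si-uc.323 replicate 1 is set against the 3 si-scramble arrays, the difference was -0.45. No feature of 19920 passed in that comparison, so it gives a value and no test of Dnmt3a.

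Of the other genes of DNA methylation, Dnmt1, which copies methylation to new strands, had a probe that was well above background on none of the 6 arrays. Dnmt3b, Uhrf1 (the partner that brings Dnmt1 to replicating DNA) and the TET dioxygenases Tet1, Tet2 and Tet3, which oxidise methylcytosine, had no matched probe. Dnmt3a therefore stood alone for its class.

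Among the class I histone deacetylases 3 of 4 members were measured. Hdac8, whose known substrates include a cohesin subunit, read -3.96, -4.49 and -3.73 on si-uc.323 replicates 1, 2 and 3 and -4.68, -5.00 and -4.74 on si-scramble replicates 1, 2 and 3. All si-uc.323 arrays were above all si-scramble arrays. The log2 fold change of Hdac8 was 0.75 ± 0.21 (SE, n = 3 and 3 arrays; limma, adjusted p = 0.0757), a fold of 1.68. Normexp background correction gave 0.27 (adjusted p = 0.291), and leaving out si-uc.323 replicate 2 gave 0.96 with a pass (adjusted p = 0.0274; range over the 16 alternatives 0.0274 to 0.291).

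Hdac1, a catalytic subunit of several co-repressor complexes, averaged 2.03 ± 0.22 with si-uc.323 and 2.05 ± 0.06 with si-scramble (SD, n = 3 each). Hdac3, the deacetylase of the NCoR complex, averaged -2.52 ± 0.26 with si-uc.323 and -2.79 ± 0.15 with si-scramble, a log2 fold change of 0.27 with an interval of -0.11 to 0.65. Both had overlapping groups. The Hdac2 probe was well above background on no array.

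Hdac5 was the measured class IIa deacetylase, the class that binds MEF2 factors. It read -1.50, -1.67 and -1.63 on the si-uc.323 arrays and -1.36, -1.58 and -1.40 on the si-scramble arrays. The groups overlapped, and the log2 fold change of -0.16 had an interval of -0.43 to 0.12. Hdac9 was well above background on 2 arrays of each group and was not tested. Its probe read -6.89, -6.61 and -6.69 with si-uc.323 and -5.75, -5.06 and -6.43 with si-scramble. All 3 si-uc.323 values were below the si-scramble ones, at signals near background. Hdac4 and Hdac7 had no matched probe.

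Among the genes that act with class IIa deacetylases, 1 of 17 measured passed and it was lower (5.63% of all features passed), and their median log2 fold change was 0.01. That gene was Mef2a, a MEF2 transcription factor, which read -1.58, -1.81 and -1.78 with si-uc.323 and -1.01, -1.25 and -1.13 with si-scramble. Its groups did not overlap, and it fell by 0.59 on the log2 scale (SE 0.12, limma, adjusted p = 0.0417). Mef2a was lower in all 16 alternatives and passed in 8. It did not pass when any si-scramble array was left out (adjusted p = 0.161 without replicate 1 and 0.188 without replicate 3) or with the slide as a block (-0.45, limma, adjusted p = 0.293). In those fits at most 18 of 19920 features passed, so they gave no test of Mef2a. Mef2a also did not pass with the replicate block (660 features called) or without si-uc.323 replicate 3 (433 called). Mef2d, another factor of the family, read 0.82, 0.62 and 0.66 with si-uc.323 and 1.05, 1.29 and 1.28 with si-scramble, again without overlap. Its log2 fold change was -0.50 ± 0.12 and did not pass (limma, adjusted p = 0.0583). Mef2c had no matched probe.

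In classes IIb and IV, Hdac11, a deacetylase that also removes fatty acyl groups, read 0.72, 0.82 and 0.52 on si-uc.323 replicates 1, 2 and 3 and 1.07, 1.04 and 1.21 on si-scramble replicates 1, 2 and 3. Every si-uc.323 array was below every si-scramble array. The log2 fold change of Hdac11 was -0.42 ± 0.12 (SE, n = 3 and 3 arrays; limma, adjusted p = 0.0869). With normexp it was -0.50 and passed (adjusted p = 0.0386; range over the 16 alternatives 0.0386 to 0.368). Hdac10, a polyamine deacetylase, averaged -3.15 ± 0.28 with si-uc.323 and -3.11 ± 0.14 with si-scramble (SD, n = 3 each), and its groups overlapped. Hdac6 had no matched probe.

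**Figure D2:**
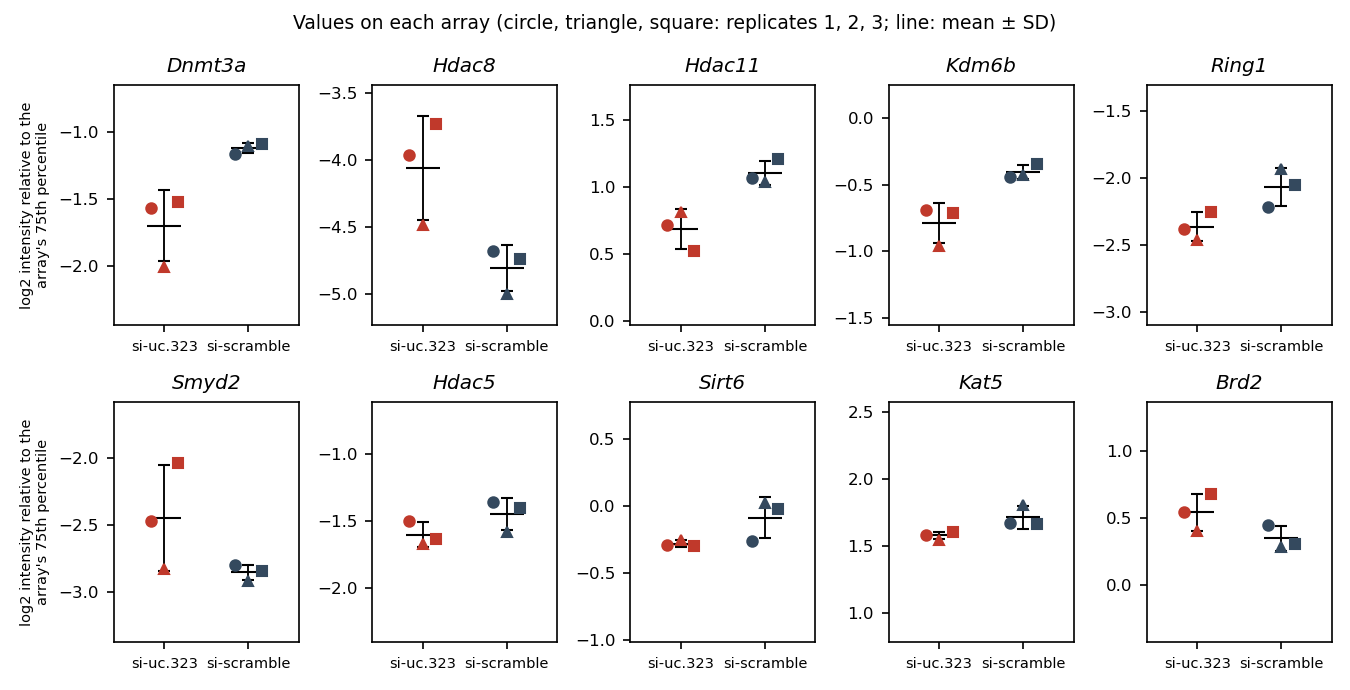
Log2 intensity relative to the array's 75th percentile (y axis, the same span in every panel) for 10 members in si-uc.323 (left, red) and si-scramble (right, dark) cultures, 1 symbol per array, with the mean and SD as lines. Dnmt3a, Hdac11, Kdm6b, Ring1 and Kat5 are lower without overlap, Hdac8 is higher without overlap, and the groups meet in Smyd2, Hdac5, Sirt6 and Brd2.

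None of the sirtuins, deacylases that consume NAD, passed. Of 7 members 5 were measured, 4 with a negative and 1 with a positive log2 fold change, between -0.20 and 0.18. Sirt5, which removes succinyl groups in mitochondria, had the value farthest from 0 (-0.20, interval -0.57 to 0.17). The nuclear Sirt6 had the lowest p of the class. It read -0.29, -0.25 and -0.30 with si-uc.323 and -0.26, 0.03 and -0.02 with si-scramble, so that si-scramble replicate 1 lay among the si-uc.323 arrays (log2 fold change -0.19, interval -0.47 to 0.08). The mitochondrial Sirt3 (-0.06) and Sirt4 (-0.10) and the nucleolar Sirt7 (0.18) also had intervals across 0. Sirt1 and Sirt2 had no matched probe.

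Of the 5 acetyltransferases, Kat2a and Kat5 were measured. Kat2a, the acetyltransferase of the SAGA complex, had the tightest estimate of the set, a log2 fold change of 0.03 with an interval of -0.21 to 0.27. Kat5, also known as Tip60, read 1.58, 1.55 and 1.61 with si-uc.323 and 1.67, 1.81 and 1.66 with si-scramble. The groups did not overlap but lay close, and the log2 fold change was -0.13 (interval -0.38 to 0.11; limma, adjusted p = 0.438). The probe of Crebbp, a large co-activator acetyltransferase, was well above background on 1 si-uc.323 array and on no si-scramble array. Ep300 and Kat2b had no matched probe.

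Of the lysine methyltransferases 6 of 10 were measured and 5 of the 6 had a positive log2 fold change, with a class median of 0.26, where 10944 of all 19920 features were positive. This count followed the processing: with normexp 2 of the 6 were positive (median -0.05), and without si-scramble replicate 1 it was 3 of the 6 (median -0.002). Smyd2 had the lowest p. It read -2.47, -2.83 and -2.04 with si-uc.323 and -2.80, -2.92 and -2.84 with si-scramble. The si-scramble arrays were close together, and si-uc.323 replicate 2 lay among them while replicates 1 and 3 were higher, giving a log2 fold change of 0.41 (interval -0.06 to 0.88; limma, adjusted p = 0.225). Smyd1, the muscle methyltransferase required for heart development, averaged -1.62 ± 0.08 with si-uc.323 and -1.66 ± 0.04 with si-scramble (SD, n = 3 each), a log2 fold change of 0.04 with an interval of -0.21 to 0.28.

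The enzymes of repressive histone H3 methylation had overlapping groups. Ehmt2, also known as G9a, had a log2 fold change of -0.04 (interval -0.32 to 0.23). Suv39h1, an enzyme of constitutive heterochromatin, averaged -5.56 ± 0.26 with si-uc.323 and -5.91 ± 0.31 with si-scramble, a log2 fold change of 0.35 (interval -0.11 to 0.82). The RefSeq table also lists a pseudogene of Suv39h1, whose transcripts its probes might share, so this value is uncertain. Setd7, which is not one of these repressive enzymes and monomethylates histones and other proteins, had 0.18 (interval -0.39 to 0.74). Kmt2a, Kmt2d, Setd2 and Ehmt1 had no matched probe.

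Dot1l, which methylates the core of histone H3, gave no stable value on these arrays. Its brightest probe had -0.08, 1.18 and 0.47 on the si-uc.323 arrays and -2.01, 1.26 and -0.08 on the si-scramble arrays. The si-scramble arrays spanned the whole range of the si-uc.323 arrays, and their SD of 1.64 was matched or exceeded by 19 of 19920 features, Dot1l included. Its log2 fold change of 0.80 ± 0.76 turned to -0.06 when si-scramble replicate 1 was left out. The other Dot1l probe gave the opposite sign. It read -0.45, -0.72 and -0.35 with si-uc.323 and -0.21, 0.23 and 0.11 with si-scramble, without overlap, a difference of -0.56 on the log2 scale.

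Of the lysine demethylases 4 of 6 were measured, 2 with a positive and 2 with a negative log2 fold change. Kdm6b, which removes the mark that PRC2 places, read -0.69, -0.96 and -0.71 on si-uc.323 replicates 1, 2 and 3 and -0.44, -0.43 and -0.35 on si-scramble replicates 1, 2 and 3. All si-uc.323 arrays were below all si-scramble arrays. The log2 fold change of Kdm6b was -0.38 ± 0.12 (SE, n = 3 and 3 arrays; limma, adjusted p = 0.0977). This probe was spotted 10 times on each array, and the SD of its spots within an array was 0.028 to 0.074. The spots of si-uc.323 replicate 2 lay between -1.0 and -0.90, below all spots of the other arrays of its group. Those spots share 1 RNA sample and count as 1 value an array. Kdm6b kept its direction in all 16 alternatives and passed in none (adjusted p 0.0614 to 0.455).

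Kdm5b, which removes methyl groups from a mark of active promoters, averaged -1.22 ± 0.07 with si-uc.323 and -0.97 ± 0.06 with si-scramble (SD, n = 3 each), without overlap and with a log2 fold change of -0.25 (interval -0.50 to -0.003; limma, adjusted p = 0.175). Kdm1a, the demethylase of the CoREST complex, read -0.96, -1.61 and -0.94 with si-uc.323 and -1.43, -1.54 and -1.43 with si-scramble. Replicates 1 and 3 of si-uc.323 were above every si-scramble array and replicate 2 was below them all. Its log2 fold change was 0.30 ± 0.19, and it passed only where si-uc.323 replicate 2 was left out (0.52, limma, adjusted p = 0.035; range over the 16 alternatives 0.035 to 0.618). Kdm4a, another demethylase of histone H3, showed the same order of si-uc.323 arrays (-5.24, -5.66 and -4.59 with si-uc.323, and -5.43, -5.39 and -5.28 with si-scramble), and its log2 fold change was 0.21 (interval -0.39 to 0.80). Kdm5a and Kdm6a had no matched probe.

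The PRC1 core had 2 measured members. Ring1, a ubiquitin ligase subunit, read -2.38, -2.47 and -2.25 with si-uc.323 and -2.22, -1.94 and -2.05 with si-scramble. The groups were apart by a narrow margin, and the log2 fold change was -0.30 ± 0.12 (limma, adjusted p = 0.174). Bmi1, its partner, had -0.06 (interval -0.40 to 0.27). Rnf2, the other ligase subunit, had no matched probe.

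Brd2, a bromodomain reader of acetylated histones, read 0.55, 0.41 and 0.68 with si-uc.323 and 0.45, 0.28 and 0.31 with si-scramble, an overlap by si-uc.323 replicate 2 alone, and a log2 fold change of 0.20 (interval -0.09 to 0.48). Smarca4, the ATPase of SWI/SNF remodelling complexes, averaged 2.32 ± 0.21 with si-uc.323 and 2.35 ± 0.10 with si-scramble (SD, n = 3 each), a log2 fold change of -0.03 (interval -0.35 to 0.30).

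The arrays of the si-uc.323 group differed more among themselves than the si-scramble arrays did. The median SD of a member was 0.225 over the si-uc.323 arrays and 0.091 over the si-scramble arrays, against 0.222 and 0.107 over all features. Replicate 2 was the lowest of the 3 si-uc.323 arrays for 19 of 28 members, where this held for 39.0% of all features, and replicate 3 was the highest for 19 of 28, against 50.5% of all features. Relative to the si-scramble mean the median member had 0.00 on si-uc.323 replicate 1, -0.15 on replicate 2 and 0.09 on replicate 3, beside -0.04, 0.03 and 0.15 for all features. Replicates 2 and 3 were on the same slide. All 3 si-uc.323 arrays lay on one side of the si-scramble mean for 15 members (7 above and 8 below), or 53.6%, and for 53.0% of all features.

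**Figure D3:**
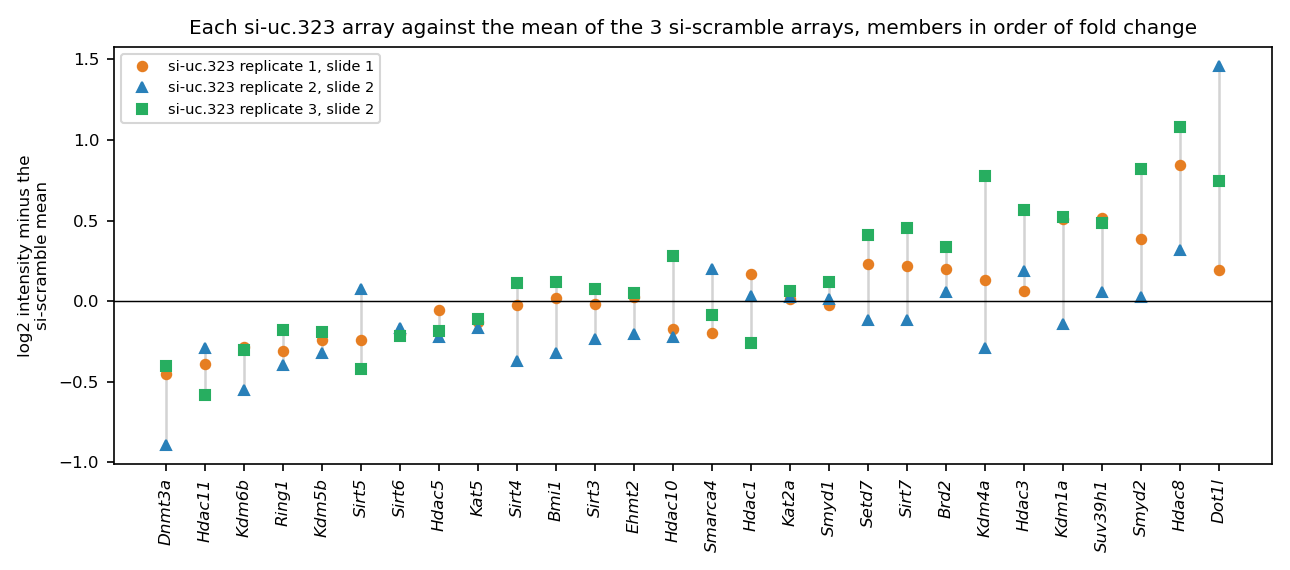
Log2 intensity of each si-uc.323 array minus the mean of the 3 si-scramble arrays (y axis) for the 28 measured members, in order of log2 fold change (x axis). Replicate 2 (triangles, slide 2) is the lowest of the 3 for 19 members and replicate 3 (squares, slide 2) the highest for 19.

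Where a member had several tested probes, they often disagreed. This concerned 5 members, and in 4 of them (Hdac1, Kat5, Dot1l and Smarca4) the brightest and the dimmest probe had opposite signs, as they did for 41.3% of the 1904 named genes with several tested probes. The bright Smarca4 probe gave -0.03 and the dim one 0.76, with -3.28, -3.30 and -2.70 on the si-uc.323 arrays and -3.90, -3.85 and -3.82 on the si-scramble arrays. Without overlap on the dim probe and with full overlap on the bright one, no direction can be given for Smarca4. The groups of Hdac1 overlapped on the brightest probe (-0.02) and on the dimmest (0.42) and were apart on the third, higher with si-uc.323 (0.84). The brightest Kat5 probe was lower without overlap (-0.13) and the dim one higher without overlap (0.40). No direction can be given for Hdac1 or Kat5 either.

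In 76.2% of the 1904 genes the dimmest probe gave a higher log2 fold change than the brightest, with a median gap of 0.22. Over all features the median log2 fold change was 0.13 in the dimmest 3984 features and -0.07 in the brightest 3984, and with normexp background correction it was -0.16 and -0.06. Of 5 brightness groups of equal size, the 2 dimmest held 7 members. Under normexp 4 of these, Suv39h1, Setd7, Sirt7 and Kdm4a, turned negative (-0.11, -0.05, -0.07 and -0.06), and Hdac8 stayed positive at 0.27. The other 2 moved little, Sirt4 to -0.15 from -0.10 as reported and Hdac10 to -0.10 from -0.04. None of the 7 passed in either fit. The normexp setting also started from median spot intensities in place of the processed ones, so the 2 changes cannot be told apart.

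**Figure D4:**
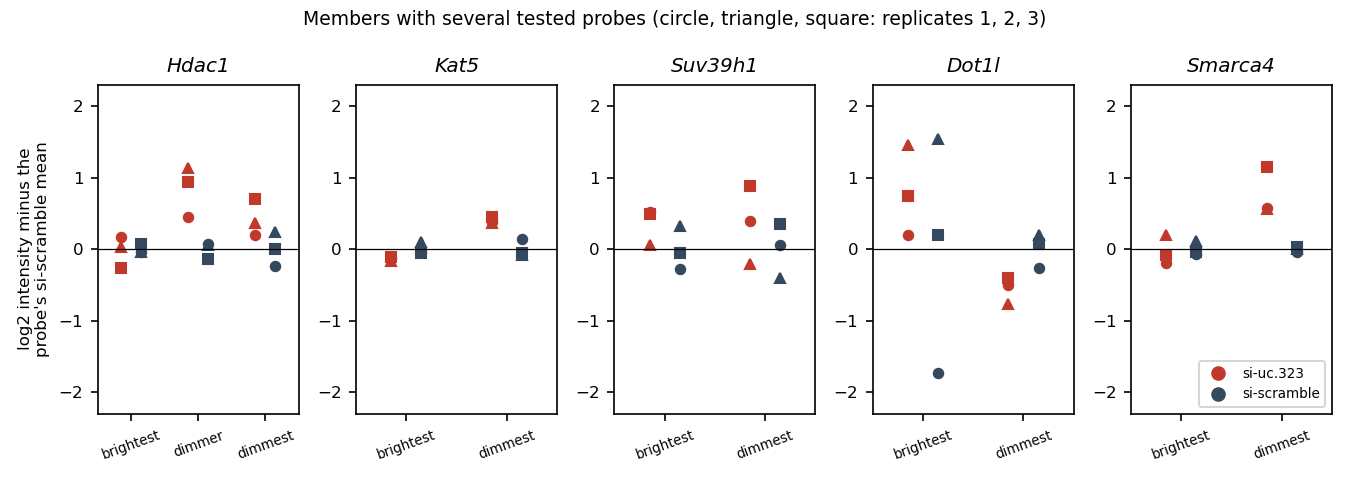
Log2 intensity minus the probe's own si-scramble mean (y axis) for each tested probe of the 5 members with several, brightest probe at the left, with si-uc.323 arrays in red left of si-scramble arrays in dark. In Smarca4 and Kat5 the dimmest probe is higher without overlap, while the brightest overlaps in Smarca4 and is lower in Kat5, in Dot1l the si-scramble values of the brightest probe span from -2.01 to 1.26 before centring, and both Suv39h1 probes average 0.35 higher.

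Other genes of the same machinery, from lists of fixed membership, were counted in the same fit. Across all features 3.18% passed higher and 2.45% lower, so 1 call in a list of 33 or 15 genes is no result about that list. Of 33 further histone acetyltransferases, methyltransferases and demethylases, 0 rose and 1 fell, with a median log2 fold change of 0.08 (-0.05 with normexp). It was Kmt5b, a methyltransferase of histone H4, which read 0.22, 0.17 and 0.11 with si-uc.323 and 0.66, 0.67 and 0.67 with si-scramble and fell by 0.50 on the log2 scale (SE 0.10; limma, adjusted p = 0.0397). Of 17 subunits of deacetylase co-repressors none passed (median -0.06), and Ncor1 had no matched probe. Of 14 further bromodomain and SWI/SNF genes none passed (median -0.05). None of 7 subunits and partners of the COMPASS methyltransferases passed (median 0.17), nor did any of 15 genes of methylated DNA binding and demethylation (median 0.09). Of 15 further PRC1 genes 1 rose, Yaf2, which read 1.40, 1.25 and 1.31 with si-uc.323 and 0.56, 0.69 and 0.71 with si-scramble (log2 fold change 0.66 ± 0.11; limma, adjusted p = 0.0272), while 11 of the 15 had a negative value and the median was -0.05 (0.06 with the slide as a block). Both genes kept their direction in all 16 alternatives, Kmt5b passing in 6 and Yaf2 in 8. Without any 1 si-scramble array, or with the slide as a block, at most 18 of 19920 features passed. Those fits gave no test of Kmt5b or Yaf2. Leaving out any si-scramble array ended both calls (limma, adjusted p = 0.156 and 0.125 without replicate 1, 0.197 and 0.146 without replicate 3), as did the slide as a block (0.272 and 0.163). Neither gene passed with the replicate block (660 features called) or without si-uc.323 replicate 3 (433 called). Kmt5b also did not pass with the mean over probes (1168 called) or without si-uc.323 replicate 1 (853 called). Its log2 fold change ranged from -0.605 to -0.19 over the 16 alternatives.

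PRC2 and DNA replication genes had other values in the same arrays, where 3.18% of all features passed higher and 2.45% lower. Of 8 measured PRC2 genes 2 rose, with a median of 0.47: Ezh2, a PRC2 methyltransferase, by 0.88 ± 0.14 (limma, adjusted p = 0.0267) and Mtf2, an accessory subunit, by 0.60 ± 0.13 (adjusted p = 0.0448). The list was mixed, with 5 positive and 3 negative values. The negative ones included Phf1 (-0.62) and Ezh1 (-0.32), both lower without overlap and neither passing. Of 24 measured genes of DNA replication and proliferation 8 rose and none fell, with a median of 0.55. The first by p were Ccnb1 (1.12 ± 0.12), Ccna2 (0.89 ± 0.14) and Ccne2 (0.93 ± 0.15), all cyclins. Pcna, the sliding clamp of replication, had 0.21 ± 0.13 and did not pass (adjusted p = 0.327), and Mki67 had no matched probe. All 10 called genes of both lists kept their direction in all 16 alternatives, and none of the 10 passed with the slide as a block, where the medians were 0.50 for PRC2 and 0.55 for replication, or when any si-scramble array was left out. With the slide as a block or a si-scramble array left out, at most 18 of 19920 features passed. Those fits gave no test of the called genes. With the replicate block (660 features called) 1 PRC2 gene and 6 replication genes were called higher. Without si-uc.323 replicate 3 (433 features called) the counts were 2 and 4. Ccne2 had 0.20 with normexp and did not pass there (limma, adjusted p = 0.399), and Mtf2 passed in 3 of the 16. A difference between these lists and the chromatin enzymes was not tested.

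The members nearest to the threshold kept their direction. Dnmt3a, Hdac11 and Kdm6b were lower and Hdac8 was higher in all 16 alternatives, and the same sign throughout was found for 13 of the 28 members. For any gene whose groups did not overlap, here or in the other lists, leaving out 1 array or using slide 1 alone could not turn the sign. In Dnmt3a, Hdac11, Kdm6b and Hdac8 the background filters, the probe mean and the replicate block left the estimate unchanged. Only the settings that change the intensities could have turned their direction. The 4 members that passed in at least 1 alternative were Dnmt3a (5 of 16), Hdac8, Hdac11 and Kdm1a (1 each).

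**Figure D5:**
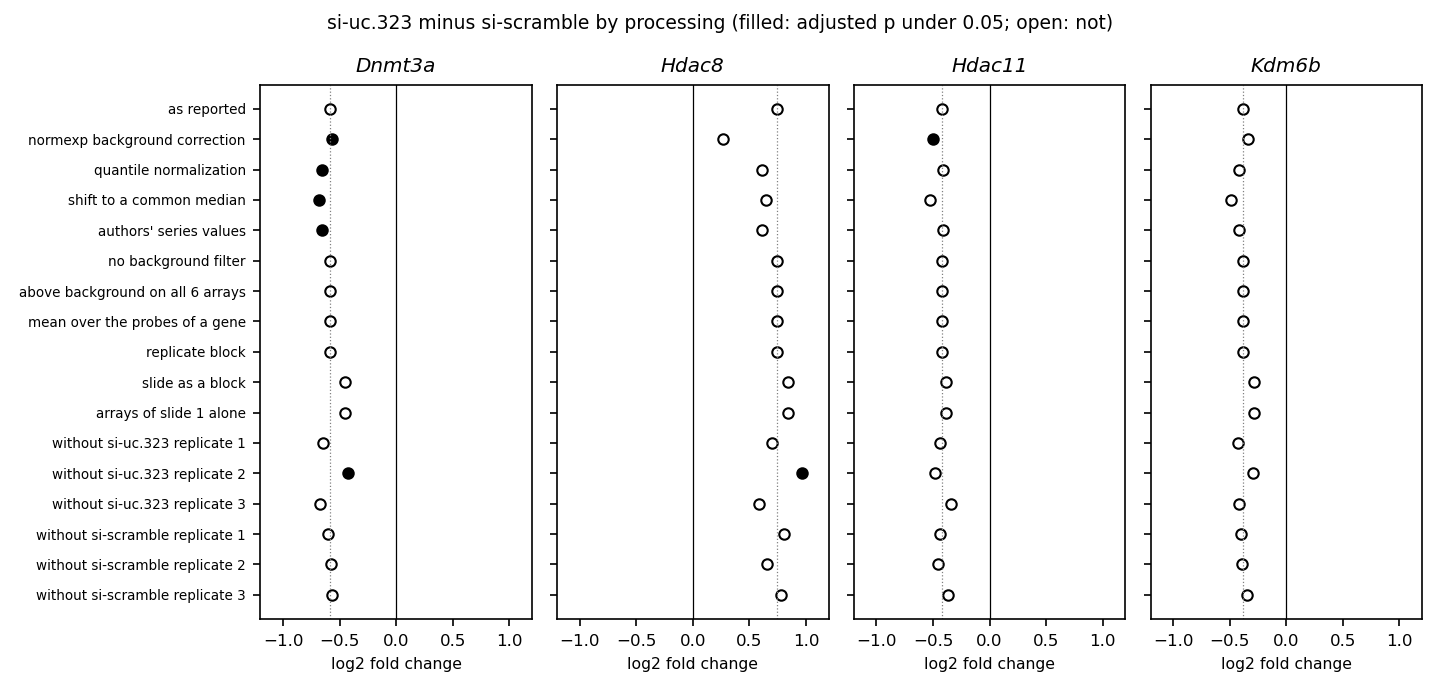
Log2 fold change (x axis, si-uc.323 minus si-scramble) of the 4 members nearest to the threshold as reported and under each of 16 alternatives (y axis), filled where the adjusted p was under 0.05. Dnmt3a stays between -0.69 and -0.43 and is filled in 5 alternatives, Hdac8 ranges from 0.27 to 0.96, Hdac11 is filled under normexp only and Kdm6b never.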

How the data were processed

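Per the labels' protocols, each culture's total RNA was amplified, marked with Cy3 and put on its own 1-colour Agilent array. The authors' scanner files, which the submitters' processing notes credit to version 11.0.1.1 of Agilent Feature Extraction, give linear intensity, background-subtracted and detrended within the array, per the file headers; the deposited series table holds log2 values with the same median (6.51) in every column and with scale and centring not given in the sources used here, and served as an alternative. Control spots and 322 to 594 outlier spots of 42877 per array were left out, and no spot was saturated. Log2 intensity was shifted by the array's 75th percentile and averaged over repeated spots. A probe was tested if every array of at least 1 group had it well above background. The number of arrays limits the precision.

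Gene names came from a RefSeq table (assembly GRCr8) by unversioned accession: of 30367 probes 18005 belonged to 1 gene and 0 to several, and 12362 stayed unnamed. The headers place probes on build rn4, so no coordinates are given. Each gene was represented by its brightest tested probe, and each unnamed probe by itself (19920 features, 11580 named genes). The groups were compared with limma 3.58.1 in R 4.3.3, without covariates, 2-sided, with Benjamini-Hochberg adjustment at 0.05. The fit was tested on simulated data. Members, lists and settings were chosen with earlier results of these data known. Values on every array were due for members past the threshold, the lowest-p member of each class and members with non-overlapping groups and a log2 fold change of at least 0.3; those of Kdm1a, Kdm4a, Hdac9, Dot1l, the dim Smarca4 probe and the named cell type markers were added after their values were seen. Of other lists up to 3 passing genes and Ezh2, Mef2c, Mef2d, Ncor1, Pcna and Mki67 are named; 1 gene that the rule names is not reported here. The labels do not say which cultures shared a litter, so the p-values reflect only how these 6 samples varied. Slides were inferred from shared scan identifiers. Alternatives were normexp (offset 50, on median spot intensity), quantile normalization, centring on the median, the series values, other background filters, the mean over probes, replicate and slide blocks, slide 1 alone and leaving out each array. Figures used matplotlib 3.10.9 in Python 3.11.15.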

Additional observations from a re-analysis of the deposited data

How the results depend on the processing

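No member passed in the fit as reported (limma; 6 of 28 at an unadjusted p under 0.05). Of the alternatives with all 6 arrays, normexp background correction called 2 members lower (Dnmt3a and Hdac11), and quantile normalization, the common median and the authors' series values called 1 each (Dnmt3a); the cause was not tested. Leaving out 1 array gave 0 to 2 members called higher and 0 to 1 lower, all of these calls coming without si-uc.323 replicate 2 (Hdac8 and Kdm1a higher, Dnmt3a lower). The number of features called, 1122 as reported, was 0 without a background filter (5065 at an unadjusted p under 0.05), 8 with the slide as a block and 0 on slide 1 alone (5897 at an unadjusted p under 0.05), and 0 to 2739 when 1 array was left out. It was 0 without si-scramble replicate 1 (3852 at an unadjusted p under 0.05) or 3 (3388), 18 without si-scramble replicate 2, and 853, 2739 and 433 without si-uc.323 replicates 1, 2 and 3. The replicate block called 660 features and no member. Same-numbered cultures deviated together at r = 0.20, 0.39 and -0.12 for numbers 1, 2 and 3, so the numbers were not taken to pair them. The share of called features that were higher was 56.5% as reported, 38.3% with the common median, 43.8% with normexp, 44.2% with quantile normalization and 44.4% on the series values. Over all features the median log2 fold change was 0.04 as reported, -0.06 with the common median and -0.07 with normexp, and that of the members was -0.03, -0.14 and -0.09. Of 28 members, 15 changed sign in at least 1 alternative, none of them past the threshold there. With the slide as a block the estimate rests on slide 1, as in the comparison on slide 1 alone. Dim probes limit the reading of Hdac2, Dnmt1, Crebbp and Hdac9, 19 members had no matched probe, the probes of Hdac1, Kat5, Dot1l and Smarca4 disagreed, and the number of arrays and their split over 2 slides limit every measured member.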
